A study of Mus musculus with 4 samples.

Results

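Described here are 37 mouse genes that make or control cholesterol and fatty acids, measured in 3 neural progenitor cell (NPC) lines and in a pooled RNA called Mixture. They were taken by name from the non-control probes of the arrays, older synonyms included, and 69 probes carried them. They form 22 cholesterol genes, of which 17 encode enzymes and 5 belong to the SREBP control system, and 15 fatty acid genes. The arrays held 27657 genes or transcripts in all, of which 19819 were well above background on at least 1 array and were tested.

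Cholesterol is built from acetyl-CoA through mevalonate, the isoprenoid units, squalene and lanosterol. Fatty acids are built from acetyl-CoA and malonyl-CoA and are then elongated, desaturated and activated as acyl-CoA esters. Many genes of both routes are targets of the SREBP transcription factors, whose release from the endoplasmic reticulum is set by Scap and the Insig proteins according to the sterol level of the membrane. Progenitor and glial cells of the brain make most of their own cholesterol, because plasma lipoproteins do not cross the blood-brain barrier.

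The study set NPC lines beside Mixture to select genes, in particular transcription factors, with higher signal in the progenitors. NS21 (NPC replicate 1, strain 129/Ola), NS195R (replicate 2, strain 129/Sv) and NSEB5-2C (replicate 3, strain 129/Ola) came from embryonic stem cell lines 21, 195R and EB5, and no label names a further treatment or a genetic change in them. Mixture joined equal masses of total RNA from 6 Swiss Webster tissues (liver, lung, heart, kidney, spleen and thymus) with RNA of day 11 embryo. Each line and Mixture gave 1 array, so p-values measure the spread between lines plus technical error, and strain, cell type and pooling cannot be told apart between the groups.

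All 4 arrays were 1-colour Cy3 arrays from 0.25 ug of RNA on 1 slide and 1 scan, with between 55.3% and 61.9% of 43379 non-control spots well above background. Levels are log2 processed signals relative to the array's own percentile 75, and they are compared between arrays for the same probe, not between genes. Mixture also carries a source label that reads as an NPC line under doxycycline, which goes against its title. Its marker genes were those of tissues: 6 of 6 liver, 6 of 7 adipocyte and 10 of 10 heart, kidney, thymus, spleen and lung markers were well above background in Mixture, against at most 2, 1 and 3 in any line. Of 8 progenitor markers, 7 were well above background in Mixture, and 6, 8 and 7 were so in NS21, NS195R and NSEB5-2C. Sox2 was not well above background in NS21, and Fabp7 was so in NS195R alone among the lines.

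Of the 17 sterol enzymes, 16 had more signal in every line than in Mixture. So did 8 of the 15 fatty acid genes, a count near the shares of all genes. These shares were 43% of genes tested and 7316 of the 12728 that every array detected. Squalene epoxidase Sqle, lanosterol synthase Lss, the desaturase Scd2, the elongase Elovl6 and the acyl-CoA synthetase Acsl3 rose, and the acetyl-CoA carboxylase Acacb fell, in limma's moderated test with Benjamini-Hochberg adjustment over all genes tested (adjusted p under 0.05). Those are 5 higher and 1 lower of 37 members, where 0.944% of all genes tested were called higher and 8.91% lower. Without adjustment, 20 members were higher and 2 lower, against 15.6% and 15.4% of all genes. By the probes kept, all 3 lines lay above Mixture for 28 members (43% of all genes) and all below for 4 (28.8% of all genes). They lay on both sides for 5, of which Acsl4 had all lines above by its other probe. Conversely, Fdft1 and Acaca, counted among the 28, each had a dimmer detected probe with lines on both sides. Many of all genes lack signal in the lines. Of the 12728 genes well above background on all 4 arrays, 7316 had all lines above and 2179 all below. Of the 36 members among them, 28 and 3 did. The line ratios share the 1 Mixture array, so a shared direction is not 3 separate observations.

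The median ratio of NPC lines to Mixture was 2.09 on the log2 scale for the 22 cholesterol members and 1.14 for the 15 fatty acid members, against 0.44 for all genes tested. Over genes with signal well above background on every array the median was 0.71, a shift that moved to 0.53 with normexp, 0.74 with quantile normalization and 1.46 with median scaling. Relative to the 0.71, 19 of 22 cholesterol and 9 of 15 fatty acid members lay higher. So did 8394 of 19819 genes tested and, because 0.71 is their median, 6364 of the 12728 on all 4 arrays. The fatty acid count, near these shares, was 8 with quantile normalization and 10 with normexp. No member's call held when NS21, NS195R or NSEB5-2C was left out (adjusted p of the 6 calls 0.0733 to 0.154), and none held among the 12728 genes well above background on all 4 arrays (0.105 to 0.120). In a pooled RNA, fewer cells of a type and less RNA per cell cannot be told apart.

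**Figure D1:**
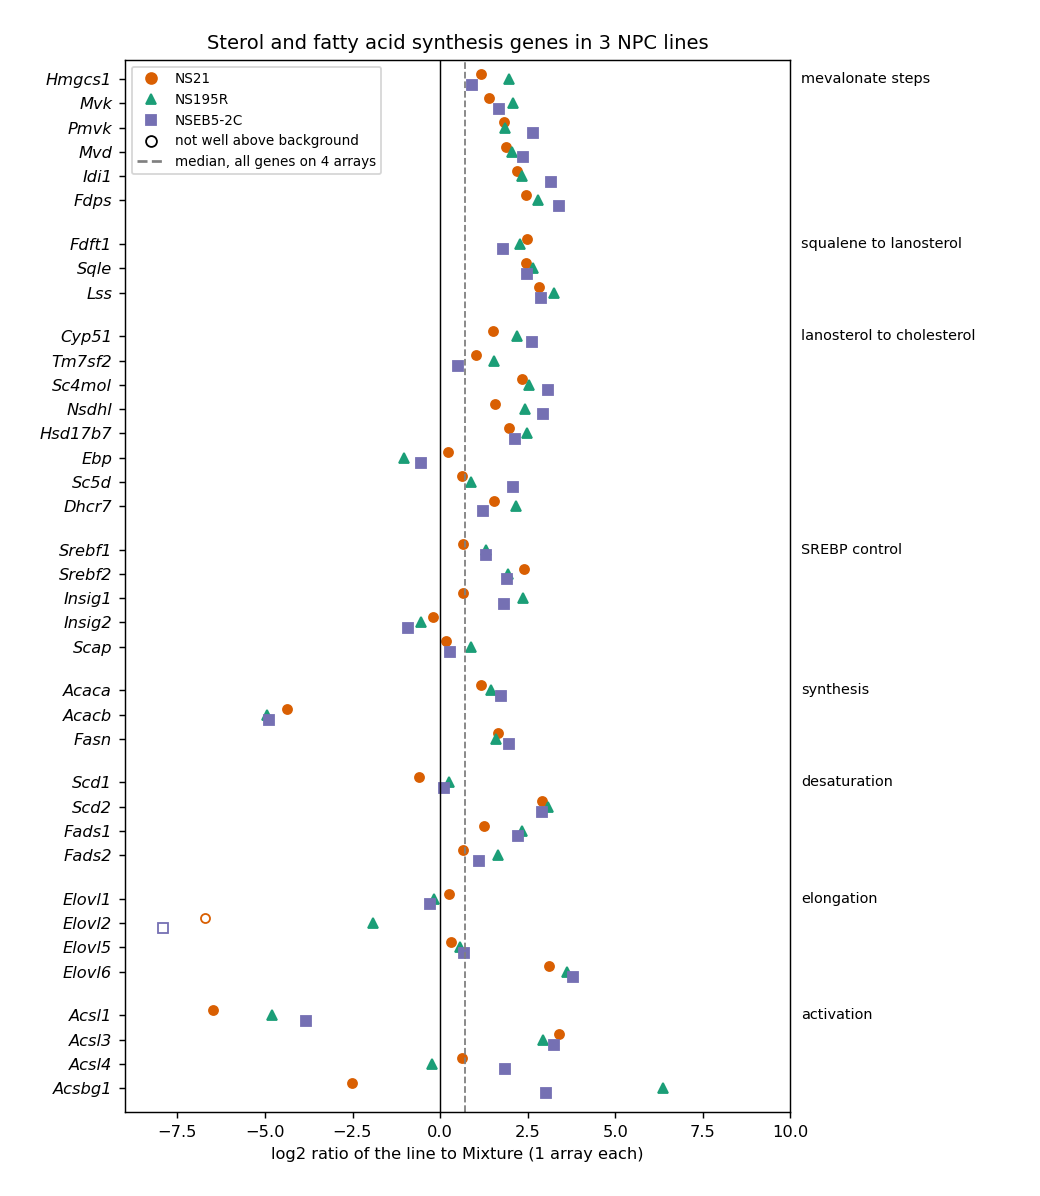
Log2 ratio of each NPC line to Mixture (x axis, 1 array each) for the 37 members (y axis), ordered by role; open symbols are lines in which the probe was not well above background, and the dashed line is the 0.71 median of genes on 4 arrays. The sterol enzymes other than Ebp lie to the right of 0 in all lines, and Acacb, Elovl2 and Acsl1 lie far to the left.

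Promoters were read for the members because the set is known for shared control through SREBP, which binds sterol regulatory elements beside the factors NF-Y and Sp1. RefSeq's promoter windows (GRCm38.p6, 250 bases before to 50 after each start site) matched 31 members with 42 windows. Not matched were Fdps, Fdft1, Sqle, Scd1, Scd2 and Fads1. The letters searched, on both strands, were CCAAT for NF-Y, then GGGCGG for Sp1, then TCACNCCAC for SREBP. A gene counts once however many windows or matches it has. CCAAT was in a window of 18 of 19 cholesterol members and 7 of 12 fatty acid members, against 41.1% of 27025 genes in the table and 42.4% of the 12619 tested genes with a window. GGGCGG was in 18 of 19 and 6 of 12, against 38.2% and 62.2%. TCACNCCAC was in Hmgcs1 and in 1 of the windows of Acsl1 only among the 31, against 1.44% of the table. Among genes with 1 window, a restriction made after the counts were seen, CCAAT was in 14 of 14 cholesterol members, 5 of 9 fatty acid members and 38.8% of 10136 tested genes, and GGGCGG was in 14 of 14, 3 of 9 and 59.3%. A match describes these letters in the window and is not evidence of binding.

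The 120 bases before the start site, 180 for Hmgcs1, are shown 5′ to 3′ along the gene for members whose values are given below, from genes with 1 window, chosen after the matches were seen. They show sterol promoters with 1 or more CCAAT matches, the TCACNCCAC match of Hmgcs1, and for contrast Elovl6, whose window held none of the letters searched. Capitals mark CCAAT or its reverse complement, and in Hmgcs1 also the TCACNCCAC match.
Hmgcs1, chr13:119690171-119690350, + strand: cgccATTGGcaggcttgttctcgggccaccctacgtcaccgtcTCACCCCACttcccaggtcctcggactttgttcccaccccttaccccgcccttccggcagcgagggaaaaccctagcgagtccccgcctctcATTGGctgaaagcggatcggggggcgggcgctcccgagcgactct
Mvk, chr5:114444149-114444268, + strand: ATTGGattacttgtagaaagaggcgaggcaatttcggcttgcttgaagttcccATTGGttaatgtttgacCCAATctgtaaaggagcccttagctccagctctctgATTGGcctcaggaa
Sc4mol, chr8:64733579-64733698, - strand: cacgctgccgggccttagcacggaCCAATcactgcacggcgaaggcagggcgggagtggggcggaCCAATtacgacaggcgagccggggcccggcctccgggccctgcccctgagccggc
Hsd17b7, chr1:169969206-169969325, - strand: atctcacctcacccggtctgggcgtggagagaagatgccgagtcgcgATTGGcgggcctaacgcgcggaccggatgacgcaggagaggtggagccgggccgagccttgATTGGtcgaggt
Lss, chr10:76531485-76531604, + strand: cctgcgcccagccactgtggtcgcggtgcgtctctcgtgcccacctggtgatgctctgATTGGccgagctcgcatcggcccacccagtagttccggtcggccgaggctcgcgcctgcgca
Fasn, chr11:120824548-120824667, - strand: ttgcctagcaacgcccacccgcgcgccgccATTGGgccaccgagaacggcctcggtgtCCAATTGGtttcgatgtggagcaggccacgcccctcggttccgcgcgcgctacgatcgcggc
Acsl3, chr1:78657705-78657824, + strand: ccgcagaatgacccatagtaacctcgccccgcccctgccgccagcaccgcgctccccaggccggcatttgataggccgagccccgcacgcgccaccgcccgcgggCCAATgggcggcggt
Acacb, chr5:114165398-114165517, + strand: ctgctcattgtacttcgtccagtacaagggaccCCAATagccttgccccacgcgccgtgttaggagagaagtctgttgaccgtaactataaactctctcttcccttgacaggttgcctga
Elovl6, chr3:129532266-129532385, + strand: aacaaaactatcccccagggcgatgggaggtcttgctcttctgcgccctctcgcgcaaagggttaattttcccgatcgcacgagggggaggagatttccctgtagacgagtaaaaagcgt
Mvk held 5 CCAAT matches in its window, Hmgcs1 4, and Sc4mol, Hsd17b7 and Fasn 3 each, of which those outside the stretch are not shown. In Fasn a forward and a reverse match overlap. Lss and Acsl3, which rose, and Acacb, which fell, held 1 each.

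The 6 mevalonate and isoprenoid genes all had more signal in every line than in Mixture, with a median log2 ratio of 2.10. None was called by limma, and 5 of 6 were higher at an unadjusted p under 0.05, against 15.6% of all genes tested. Levels below are given in the order Mixture, NS21, NS195R and NSEB5-2C. Hmgcs1, which condenses acetyl-CoA with acetoacetyl-CoA to HMG-CoA, stood at 4.15, 5.32, 6.11 and 5.05 (log2 ratio 1.34, SE 0.60, limma adjusted p = 0.240). Mvk, mevalonate kinase, was at -0.39, 1.02, 1.69 and 1.30, a log2 ratio of 1.73. Pmvk, which adds the next phosphate, was at 2.63, 4.45, 4.49 and 5.29, a log2 ratio of 2.11. In these first steps the lines lay between 1.86-fold and 6.32-fold above Mixture, without overlap.

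Mvd, which decarboxylates to the first isoprenoid unit, was at 0.76, 2.63, 2.80 and 3.12 (log2 ratio 2.09, SE 0.40, limma adjusted p = 0.0784). Idi1, the isomerase of that unit, was at 1.51, 3.70, 3.86 and 4.68 (log2 ratio 2.57, SE 0.58, limma adjusted p = 0.0974). Fdps, which joins the units to farnesyl pyrophosphate, was at 2.03, 4.49, 4.81 and 5.42 (log2 ratio 2.88, SE 0.54, limma adjusted p = 0.0751). For each of the 3, and for Pmvk, NSEB5-2C had the highest level and NS21 the lowest. A further probe of Idi1 gave a log2 ratio of 3.38 and one of Fdps 3.18.

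The steps from farnesyl pyrophosphate to lanosterol had the highest median ratio of the roles, 2.53 on the log2 scale over 3 genes, of which 2 rose. Sqle, the oxygen-dependent epoxidase that is a slow step of the pathway, stood at 1.97 in Mixture and at 4.42, 4.61 and 4.46 in NS21, NS195R and NSEB5-2C. The lines differed among themselves by 1.14-fold at most and were 5.79-fold above Mixture on average (log2 ratio 2.53, SE 0.35, limma adjusted p = 0.0416). With quantile normalization Sqle missed the threshold (adjusted p = 0.0554). Lss, which cyclises oxidosqualene to lanosterol, stood at -0.91 in Mixture and at 1.91, 2.33 and 1.97 in the lines. It rose 7.87-fold (log2 ratio 2.98, SE 0.39, limma adjusted p = 0.0387), and its other probes gave log2 ratios of 2.76 and 2.85. Fdft1, squalene synthase, was at 1.24, 3.71, 3.53 and 3.05 (log2 ratio 2.19, SE 0.45, limma adjusted p = 0.0873). A dimmer probe of Fdft1, above background on 3 arrays, gave a log2 ratio of -0.06, with NS195R above Mixture and the other lines below. Of 21 members with more than 1 probe above background on at least 1 array, Fdft1 alone had such probes of opposite sign. In 5 of them, Fdft1, Nsdhl, Acaca, Acacb and Acsl4, these probes differed by over 1 log2 unit.

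Of the 8 genes that turn lanosterol into cholesterol, 7 had more signal in every line than in Mixture and Ebp did not. None was called, and 5 were higher at an unadjusted limma p under 0.05, against 15.6% of all genes tested. Sc4mol (current symbol Msmo1), the methyl sterol oxidase, was at 3.17, 5.50, 5.72 and 6.24, the lines 5.02-fold to 8.42-fold above Mixture (log2 ratio 2.65, SE 0.48, limma adjusted p = 0.0708). Hsd17b7, a ketosteroid reductase of the same demethylation, was at 0.41, 2.37, 2.89 and 2.55 (log2 ratio 2.19, SE 0.41, limma adjusted p = 0.0746). Nsdhl, the decarboxylating dehydrogenase between them, was at -0.92, 0.63, 1.51 and 2.02 (log2 ratio 2.31, SE 0.71, limma adjusted p = 0.147). The lines spread over 2.63-fold for Nsdhl, whose other probes gave log2 ratios of 2.11, 2.33 and, for one above background on 3 arrays, 4.81. All lines lay above Mixture for each of these demethylation genes.

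Cyp51, the lanosterol demethylase, was at -0.25, 1.26, 1.95 and 2.38, its log2 ratio at 2.12 (SE 0.60, limma adjusted p = 0.132). Dhcr7, which makes cholesterol from its last precursor in a branch, was at 2.46, 4.0, 4.61 and 3.68, with a log2 ratio of 1.64. Tm7sf2, a sterol reductase, was at 2.44, 3.47, 3.98 and 2.96, with a log2 ratio of 1.03. The ratios of these 3 genes exceeded the 0.71 median shift by 1.41, 0.93 and 0.32, but the other probe of Dhcr7 gave 0.70, no higher than the shift. Sc5d, the lathosterol oxidase, was at 1.91, 2.54, 2.78 and 3.99, with NSEB5-2C 2.31-fold above the next line (log2 ratio 1.20, SE 0.77, limma adjusted p = 0.379). Its other probe, on all 4 arrays, was at -0.70, 0.74, 1.81 and 1.82 (log2 ratio 2.16), with NSEB5-2C level with NS195R. Ebp, the sterol isomerase, was at 5.24, 5.47, 4.20 and 4.70, so that NS21 lay above Mixture and the others below. Its log2 ratio was -0.45 (95% interval -2.43 to 1.54, limma adjusted p = 0.694), with the sign turned to 0.31 by median scaling.

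None of the 5 SREBP control genes was called, and 1 of them, Srebf2, was higher at an unadjusted limma p under 0.05. That count is near the share of all genes, 15.6% of those tested and 2634 of 12728 on all 4 arrays. Srebf2, the factor best known for sterol genes, was at 3.27, 5.67, 5.22 and 5.17, the lines 3.73-fold to 5.28-fold above Mixture (log2 ratio 2.08, SE 0.42, limma adjusted p = 0.0826). Its 4 probes gave log2 ratios between 1.68 and 2.65. Srebf1, whose shorter product is best known for fatty acid genes, was at 4.32, 4.97, 5.62 and 5.64 (log2 ratio 1.09, SE 0.48, limma adjusted p = 0.235). Insig1, an endoplasmic reticulum anchor that is itself an SREBP target, was at -1.47, -0.80, 0.91 and 0.36. NS21 lay 2.25-fold below the next line, and the mean log2 ratio was 1.63 (SE 0.85, limma adjusted p = 0.295). Insig2, the anchor that is not SREBP-driven in the same way, was at 1.80, 1.60, 1.25 and 0.88, below Mixture in each line (log2 ratio -0.56, SE 0.47, limma adjusted p = 0.482), with the sign turned to 0.19 by median scaling. Scap, the sterol-sensing escort, was at 3.88, 4.06, 4.76 and 4.15, within 1.84-fold of Mixture in every line. The differences between the members of a pair were not tested.

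In fatty acid synthesis the carboxylases lay on opposite sides of Mixture. Acacb, the mitochondrial form whose malonyl-CoA restrains fatty acid oxidation, stood at 2.94 in Mixture and at -1.44, -1.98 and -1.95 in NS21, NS195R and NSEB5-2C. It fell by 4.74 on the log2 scale, 26.6-fold (SE 0.43, limma adjusted p = 0.0186), with no line nearer than 20.9-fold to Mixture. The other probe, above background on 1 array, gave -1.74, and the call was lost with the mean of both probes (log2 ratio -3.24, adjusted p = 0.0854). Acaca, the cytosolic form that feeds synthesis, was at -1.48, -0.30, -0.01 and 0.26 (log2 ratio 1.46, SE 0.42, limma adjusted p = 0.134), and its probes ranged from 0.37 to 2.46. Fasn, the synthase, was at 5.33, 6.99, 6.93 and 7.30, with all lines within 1.29-fold of each other (log2 ratio 1.75, SE 0.38, limma adjusted p = 0.0934). Both Acaca and Fasn had all lines above Mixture by the probe kept, and neither was called. By a dimmer probe of Acaca, above background on 2 arrays, NS21 lay below Mixture (log2 ratio -0.53).

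Beside Acacb, marker genes of adipocytes and of the pooled tissues differed in the same direction. Adipose tissue is not named among the pooled tissues. The summed signal of 7 adipocyte markers was 6.57 on the log2 scale in Mixture, where Fabp4 alone was at 6.15. In the lines it was -3.42, -3.27 and -2.33, with 1, 0 and 1 of the 7 well above background. The summed signal of 6 liver markers was 9.71 against -3.27, -3.76 and -3.67 in the lines. That of 10 heart, kidney, thymus, spleen and lung markers was 9.49 against -3.24, -1.58 and -3.29. In the lines 2, 1 and 1 of these liver markers and 0, 3 and 0 of the 10 were well above background. Of the liver markers, Alb and Apoa1 were above background in none of the lines. The part of these tissues and of adipocytes in the ratios of Acacb and of the genes that follow was not tested.

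The stearoyl-CoA desaturases place the first unsaturated bond in saturated fatty acids. Scd2, the form abundant in brain, stood at 4.04 in Mixture and at 6.94, 7.11 and 6.94 in the lines. It rose 7.77-fold, with the lines within 1.12-fold of each other (log2 ratio 2.96, SE 0.35, limma adjusted p = 0.0302). Scd1, the liver and adipose form, was at 3.06, 2.47, 3.31 and 3.19, with NS21 below Mixture and the others above. Its log2 ratio was -0.08 (95% interval -1.66 to 1.51, limma adjusted p = 0.935), positive at 0.18 without NS21 and at 0.68 with median scaling. The difference between Scd1 and Scd2 was not tested, nor was cross-hybridisation between these similar genes. Fads1, a front-end desaturase of polyunsaturated fatty acids, was at 1.09, 2.33, 3.44 and 3.31 (log2 ratio 1.94, SE 0.64, limma adjusted p = 0.158). Fads2, which acts before it, was at 1.43, 2.07, 3.09 and 2.56 (log2 ratio 1.14, SE 0.56, limma adjusted p = 0.276). In all 4 desaturase genes NS21 had the lowest and NS195R the highest level of the lines, but for Scd2 NS21 was level with NSEB5-2C (1.001-fold apart).

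The 4 elongases included Elovl6, with the largest positive ratio of the set, and Elovl2, far below Mixture. Elovl6, which extends the products of Fasn, stood at 0.65 in Mixture and at 3.75, 4.28 and 4.43 in the lines. It rose 11.3-fold (log2 ratio 3.50, SE 0.46, limma adjusted p = 0.0390), between 8.55-fold in NS21 and 13.7-fold in NSEB5-2C. Elovl5, an elongase of polyunsaturated fatty acids, was at 3.05, 3.38, 3.62 and 3.74, with 0.53 as its log2 ratio (SE 0.37, limma adjusted p = 0.418), below the 0.71 shift. Elovl1, which acts on very long saturated chains, was at 3.70, 3.95, 3.52 and 3.42, with -0.07 as its log2 ratio (95% interval -1.33 to 1.19, limma adjusted p = 0.925). That sign was positive without NSEB5-2C (0.037) and with median scaling (0.68). Elovl2, the elongase of docosahexaenoic acid synthesis, was at 0.70 in Mixture and -1.21 in NS195R, whereas in NS21 (-6.02) and NSEB5-2C (-7.21) it was not well above background. Mixture was 3.77-fold above NS195R, and the log2 ratio over all lines, -5.51 (SE 2.86, limma adjusted p = 0.292), rests on 1 line with measured signal.

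The acyl-CoA synthetases, which activate fatty acids for use, were split. Acsl3, a form of the endoplasmic reticulum and lipid droplets, stood at -0.79 in Mixture and at 2.62, 2.16 and 2.45 in the lines, and rose 9.17-fold (log2 ratio 3.20, SE 0.39, limma adjusted p = 0.0335). Acsl1, the main form of liver, heart and fat, was at 4.84 in Mixture and at -1.65, 0.03 and 1.01 in the lines, 89.7-fold, 28.0-fold and 14.2-fold below it. Its log2 ratio was -5.04 (SE 1.25, limma adjusted p = 0.110), and its 3 probes gave -4.89 to -5.40. The size of this difference was among the largest of the set and the lines spread over 6.31-fold. Acsl4, which prefers arachidonic acid, was at 2.43, 3.05, 2.19 and 4.28, with NS195R below Mixture and NSEB5-2C 3.61-fold above it (log2 ratio 0.75, SE 1.0, limma adjusted p = 0.662). Its other probe, on all 4 arrays, was at 0.03, 1.55, 0.59 and 3.20, with every line above Mixture (log2 ratio 1.75). Acsbg1, the bubblegum form known from brain, was at -1.24, -3.77, 5.12 and 1.77 (log2 ratio 2.28, SE 4.03, limma adjusted p = 0.742), an average over lines on both sides of Mixture.

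**Figure D2:**
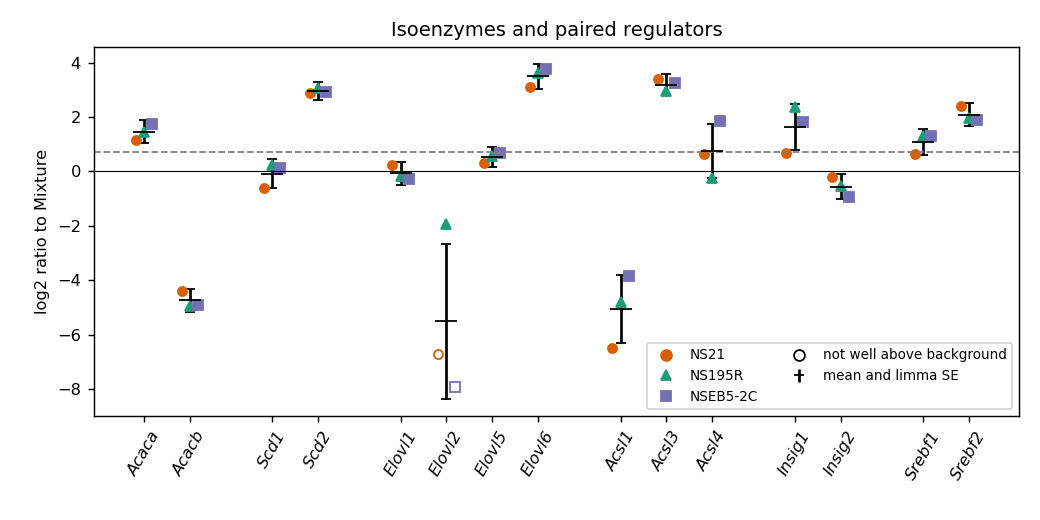
Log2 ratio to Mixture (y axis) of each line and their mean with its limma standard error (bar) for genes that share a reaction or a role (x axis); the dashed line is the 0.71 median shift, and open symbols were not well above background. Scd2, Elovl6 and Acsl3 have means of 2.96, 3.50 and 3.20, Acacb and Acsl1 have means of -4.74 and -5.04, and the Acsl4 and Elovl2 lines are spread widely.

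The range over the lines was under 1 log2 unit in 24 of 37 members (64.9%), against 47.7% of all genes tested, and its median was 0.75 against 1.06. Where all 4 arrays gave signal well above background, the median range was 0.73 for 36 members and 0.83 for all 12728, with 66.7% and 58.6% under 1 log2 unit. NS21 had the lowest level of the lines in 24 members (64.9%), against 23% of all genes tested, and in 20 to 25 members with other background corrections, scalings or the mean of probes. The 24 include near ties on single arrays, such as Scd2, Pmvk, Sqle and Lss, whose next line was 1.001-fold, 1.03-fold, 1.03-fold and 1.04-fold above NS21. NS195R was lowest in 5 (38.8% of all genes) and NSEB5-2C in 8 (38.1%), counts that median scaling turned to 12 and 5, where the shares of all genes became 53.5% and 20.8%. The highest level was in NS195R for 15 members (32.3% of all genes), in NSEB5-2C for 15 (30%) and in NS21 for 7 (37.7%). The median log2 ratio to Mixture of the 17 sterol enzymes was 1.82, 2.20 and 2.36 in NS21, NS195R and NSEB5-2C. Limma called no member in any line against the other lines, with 0, 1 and 0 members at an unadjusted p under 0.05 in NS21, NS195R and NSEB5-2C. It called no gene at all in that comparison (0 of 19819 for each line), where 5.71%, 10.5% and 5.82% had an unadjusted p under 0.05.

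By size alone, with 1 array per line, 3 members were at least 2-fold below both other lines in NS21 (5.86% of all genes), namely Insig1, Acsl1 and Acsbg1. In NS195R, 2 members, Elovl2 and Acsbg1, were at least 2-fold above both (12.6% of all genes). In NSEB5-2C, 2 members, Sc5d and Acsl4, were at least 2-fold above both (6.92%), the former only by the probe kept, and 1, Elovl2, at least 2-fold below (9.33%). That last value compares signals that were not well above background in NS21 and NSEB5-2C. No member was at least 2-fold above both in NS21 (8.88%) or below both in NS195R (7.36%).

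Acsbg1 had the widest range of the members: NS195R lay 10.2-fold above NSEB5-2C, and NSEB5-2C 46.4-fold above NS21. For Elovl2, NS195R lay at least 15.7-fold above NSEB5-2C, the latter at the lowest signal well above background. Of 6 astrocyte markers, 5 were well above background in NS195R and 3 in each other line, and their summed log2 signal was 4.54 in NS195R, 1.74 in NS21, 1.83 in NSEB5-2C and 4.59 in Mixture. Aqp4, Aldh1l1, Slc1a2 and S100b had their highest level of the lines in NS195R, whereas Gja1 was at -0.34 there and at 1.30 and 1.34 in NS21 and NSEB5-2C. Each sum follows mainly 1 marker: Gja1 in NS21 and NSEB5-2C, S100b in NS195R and Aldh1l1, at 4.42, in Mixture. S100b, a glial calcium-binding protein, was at 4.13 in NS195R and at -3.04 and -3.68 in NS21 and NSEB5-2C, while Gfap was not detected above background on any of the 4 arrays. The part of these markers in the levels of Acsbg1 and Elovl2 was not tested. Acsl1 was highest in NSEB5-2C, 1.97-fold above NS195R, which lay 3.21-fold above NS21, and all its probes gave the same order.

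**Figure D3:**
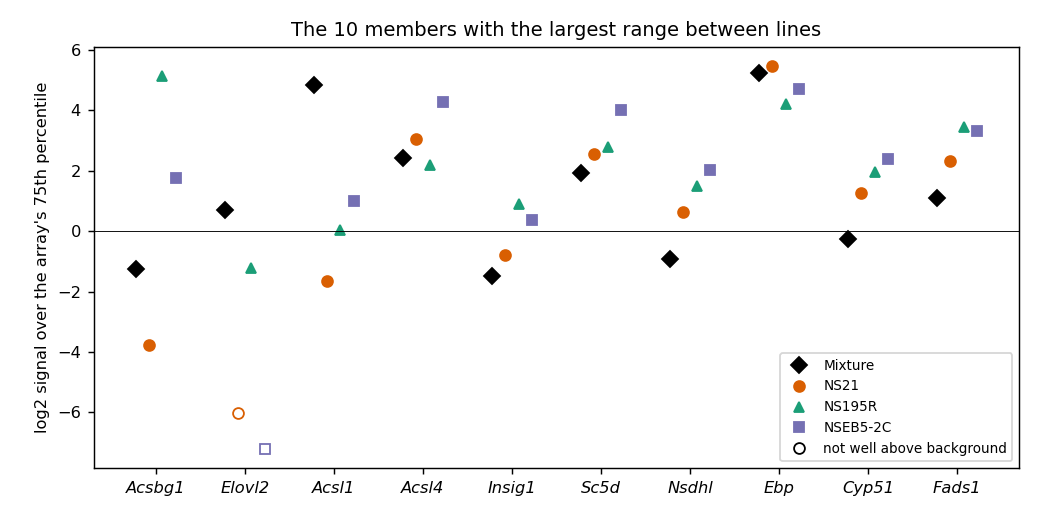
Level (y axis, log2 signal over the array's percentile 75) on each of the 4 arrays for the 10 members (x axis) with the widest range between lines; open symbols were not well above background. Acsbg1 runs from -3.77 in NS21 to 5.12 in NS195R, whereas the remaining members other than Elovl2 and Acsl1 keep their lines within 4.26-fold.

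In the study's own selection a gene had to exceed Mixture by 1.5-fold in NSEB5-2C together with NS195R or NS21, and detection in those lines was added here. It was met by 27 members, against 36.1% of all genes tested, many of which lack signal in the lines. Where each of the 4 arrays detected the gene, 27 of 36 members and 6248 of 12728 genes met it. The 27 members were 15 of the 17 sterol enzymes, 3 of 5 SREBP control genes and 9 of 15 fatty acid genes. The enzymes that missed it were Ebp and Tm7sf2, the latter at 1.44-fold in NSEB5-2C. Sc5d met it in NSEB5-2C at 4.24-fold and in NS195R at 1.83-fold. The desaturase Fads2 met it at 2.18-fold in NSEB5-2C and 3.15-fold in NS195R. With 2-fold in place of 1.5-fold, 24 members met it.

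Genes next to these routes were read from lists of fixed names. Of 13 sterol and isoprenoid genes, 12 were tested and none was called, with a median log2 ratio of 0.56. Stard4, a sterol carrier that is an SREBP target, was at 0.84, 2.73, 3.21 and 3.55 (log2 ratio 2.32, SE 0.50, limma adjusted p = 0.0919), and Acat2, which makes acetoacetyl-CoA, was at 0.98, -0.90, -0.69 and -0.48 (log2 ratio -1.67, SE 0.38, limma adjusted p = 0.100). Over 16 genes of sterol export, storage and breakdown the median log2 ratio was -3.41. None rose and, against 8.91% of all genes tested, 4 fell. These were Soat2, an acyltransferase that stores cholesterol as ester, at least 11.3-fold lower, and the bile acid enzymes Cyp27a1, Cyp7a1 and Cyp8b1, at least 26.0-fold, 13.7-fold and 10.8-fold lower (limma adjusted p between 0.00872 and 0.0162). A bound sets Mixture against the lowest signal well above background, because no line had measured signal for these 4.

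Of 26 genes of fatty acid supply, elongation and desaturation, 21 were tested and 1 fell, against 8.91% of all genes tested. The median log2 ratio was -0.38. Mlxipl, the carbohydrate-responsive factor of lipogenic genes, was at least 85.5-fold lower in the lines (limma adjusted p = 0.0214). Acly, which supplies acetyl-CoA from citrate and was picked out after its values were seen, was at 0.63, 2.78, 2.57 and 3.08 (log2 ratio 2.18, SE 0.41, limma adjusted p = 0.0747). Of 13 fatty acid oxidation genes, 2 fell and none rose, against 8.91% and 0.944% of all genes tested. All lines lay below Mixture for 12 of them (28.8% of all genes tested), and the median log2 ratio was -2.05. Cpt1b, the muscle carnitine palmitoyltransferase, was at 2.68, -2.66, -3.18 and -3.76 (log2 ratio -5.88, SE 0.60, limma adjusted p = 0.0231). Cpt1c, the brain form, was the 1 oxidation gene with all lines above Mixture, at -3.57, 2.48, 2.14 and -0.30 (log2 ratio 5.02, SE 1.40, limma adjusted p = 0.128). The liver marker values above differ in the same direction as these falls, and their part was not tested.

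**Figure D4:**
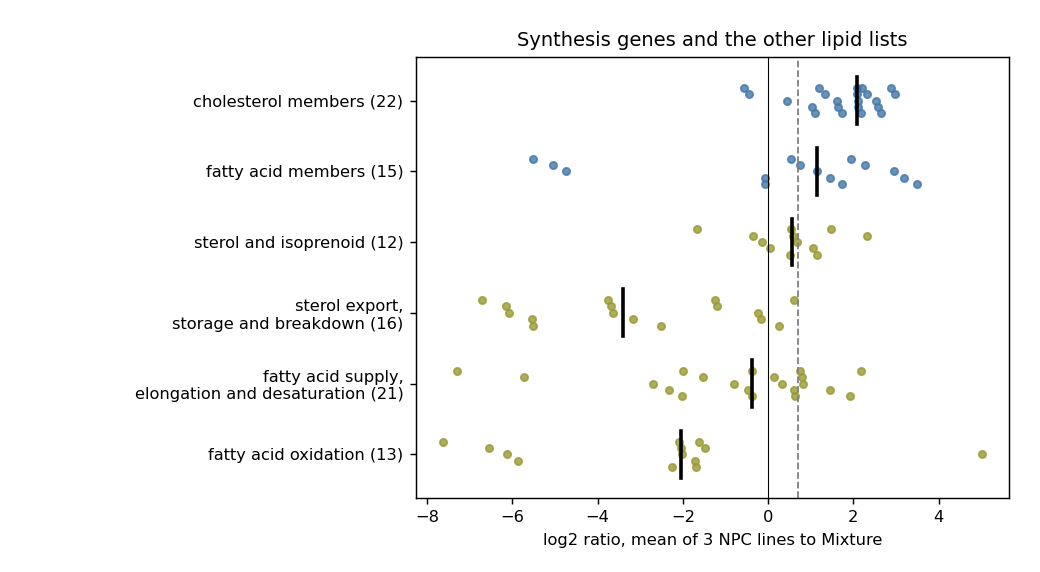
Log2 ratio of the mean of 3 NPC lines to Mixture (x axis) for each tested gene (point) of the members and of 4 other lipid lists (y axis, number tested in parentheses); black bars are medians, the dashed line is the 0.71 median shift. The cholesterol members have a median of 2.09 and the export, storage and breakdown genes one of -3.41.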

How the data were processed

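Total RNA of 4 mouse samples was hybridised to 1-colour Agilent arrays, and the authors deposited each spot's intensity with background subtracted and quality flags set. Per the file headers, the software was Agilent Feature Extraction 9.5.3.1. No genome build is named for the probes in the sources used here. Columns of other samples numbered 0.

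From the deposited intensity, log2 values were computed and scaled by subtracting percentile 75 of the non-control spots of the array. Flagged spots were left out, copies of 245 repeated probes were averaged, and 19 of 41174 probes were dropped for a missing value. A probe was well above background where most of its spots carried that flag. For each gene the probe with the highest mean was kept. Two-sided tests came from lmFit and eBayes of limma 3.58.1 (R 4.3.3), with Benjamini-Hochberg adjustment, on 19819 genes, 3 lines against 1 Mixture array, which was assumed to vary like the lines. The fit was tested on simulated data with known changes. With 200 of 19819 genes changed it called none, also none of 50 at a log2 size of 8. With 5946 changed it called 37 of 1487 at log2 size 1, 501 of 1487 at 2, 897 of 1486 at 4 and 1182 of 1486 at 8. There it also called 133 of 13873 unchanged genes. A gene that was not called may therefore still differ.

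Members and lists were chosen with earlier results of these data known. Members were given in full where called, among the 10 largest ratios or the 10 widest ranges between lines, or in an Insig, Srebf or Scd pair. From other lists, called genes and up to 4 with the largest ratio or range were named. Alternatives were normexp with offset 50, quantile normalization, median scaling, other detection filters, the mean of probes, an intensity trend, other fold sizes and leaving out each line. The precision is limited by the number of arrays. Some genes counted in the lists are not reported here by name.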

Additional observations from a re-analysis of the deposited data

Results flagged for a closer look

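For 5 members the lines lay on both sides of Mixture, each line with 1 array. Pairs of lines were not tested against each other, and limma's test of each line against the mean of the other lines called none of the 5 (lowest unadjusted p 0.0693, adjusted p = 0.964, for Acsbg1 in NS21). The log2 ratio of Ebp, the sterol isomerase, was 0.23 in NS21 and -1.03 in NS195R. Scd1 stood at -0.59 in NS21 and at 0.25 in NS195R, and Elovl1 at 0.25 in NS21 and at -0.28 in NSEB5-2C. Acsl4, the synthetase that prefers arachidonic acid, stood at 1.85 in NSEB5-2C and at -0.24 in NS195R, but at 3.17 and 0.56 by its other probe, which put all lines above Mixture. Acsbg1 was the widest, at 6.36 in NS195R and -2.53 in NS21. For Scd1 and Elovl1 every line was within 1.51-fold of Mixture.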

How the results depend on the processing

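Of the 37 members, 5 were called higher and 1 lower in the NPC lines. The higher calls became 12 with normexp, 11 with an intensity trend and 0 with a filter for detection on all 4 arrays, and the lower call became 0 with that filter and with the mean of probes. Over all genes, 187 higher calls became 966 with normexp, 588 with quantile normalization, 525 without a detection filter, 473 with the trend and 0 with the filter on all 4 arrays, where the 1765 lower calls also became 0. Leaving out any 1 line gave 0 to 0 calls in each of these counts, with 1 fewer array. With median scaling the medians of the cholesterol and fatty acid members became 2.84 and 1.89, and the log2 ratios of Ebp, Insig2, Scd1 and Elovl1 turned to 0.31, 0.19, 0.68 and 0.68. With each line left out in turn, Scd1 ranged from -0.24 to 0.18 (the latter without NS21) and Elovl1 from -0.23 to 0.037 (without NSEB5-2C). Among the lines, a size of 1.5-fold gave 1 member above and 8 below in NS21, 5 above and 1 below in NS195R, and 6 above in NSEB5-2C. With the mean of probes the 2 members above in NSEB5-2C were Acsl1 and Acsl4 in place of Sc5d and Acsl4. Median scaling gave 1 below in NS195R and 6 above in NSEB5-2C, and left 12 members lowest in NS195R and 5 in NSEB5-2C. In NS195R 1 member stayed above with the filter on all 4 arrays. The 1 member below in NSEB5-2C, Elovl2, became 0 with normexp, median scaling, that filter, raised dim values and, chosen after seeing the data, with detection required, and 2 with the mean of probes. The counts of members by lowest line under other settings were also chosen after seeing the data. The causes were not tested. Signal limits Elovl2, which 2 of 4 arrays measured. No paired analysis was possible because the labels give no replicate numbers shared between groups and Mixture has 1 array.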

Other observations

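Some lipid genes outside the 37 had wide ranges between the lines, each with 1 array, and limma's test of each line against the other lines called none of them (lowest adjusted p = 0.273, for Thrsp and Cyp7b1 in NS195R). Thrsp, a lipogenic gene of liver and fat, was at 2.59 in NS195R and 2.42 in Mixture with no signal well above background in the other lines. NS195R lay at least 220-fold above NSEB5-2C, the latter at the lowest signal well above background. The oxysterol hydroxylase Cyp7b1 was at 1.49 in NS195R and 1.74 in Mixture, at least 103-fold above NSEB5-2C. Acsl6, the acyl-CoA synthetase of neurons, was at 0.31 in NSEB5-2C, -2.53 in NS195R and -4.54 in Mixture and not above background in NS21. Abca1, the sterol exporter, was at 1.49, -0.15 and -2.24 in NS21, NS195R and NSEB5-2C, against 0.95 in Mixture.

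Of the genes of the other lists, 6 were not well above background on any array and were not tested: Pdss2, Olah, Scd3, Scd4, Fads6 and Acsbg2.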
